A study of Populus trichocarpa with 12 samples.

Results

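Input-dominated regions are stretches of the Populus trichocarpa genome where DNA recovered with an antibody against H3K9ac gave fewer reads than unselected input DNA from the same tissue. They were taken from 2 deposited lists of differential H3K9ac regions, which set day 5 and day 7 of drought each against day 0, as every listed region whose geometric mean of the deposited drought and day 0 enrichments over input was below 0.5. The rule found 162 of 10605 regions in the day 5 list and 121 of 12101 in the day 7 list, 283 of 22706 in all. The regions were selected on the deposited enrichments, so the levels and changes below come from the values that selected them and are given as a description. The adjusted p-values given below are no test of the selected regions.

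H3K9ac, acetylation of lysine 9 of histone H3, is a mark of open, actively transcribed chromatin and is usually found around the starts of genes. In chromatin immunoprecipitation the DNA bound to the marked histone is pulled down and sequenced, and an input library, sheared chromatin that was not pulled down, records how many reads each stretch of genome gives without selection. A region with very deep input can therefore hold many reads in the pulled-down library and still be depleted of the mark relative to its input.

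The tissue was differentiating xylem from stems of 3-month-old plants, the layer in which new wood cells form. Plants at day 0 were fully watered, with a soil water content of 74% and a xylem water content of 80.6%. Watering was then withheld, and soil and xylem water stood at 33% and 75.3% at day 5 (mild drought) and at 29% and 74.3% at day 7 (severe drought). Each day had 2 H3K9ac libraries and 2 input libraries, 12 in all, and the labels do not say whether they came from separate plants, so the spread between replicates may be technical. The lists give the H3K9ac reads of each library and the mean enrichment over input of each group, so an input level has no replicate error, and the total depth of each library cannot be read from them.

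Input levels were recovered by dividing the mean H3K9ac reads by the deposited enrichment, and are given per kb of region in normalised reads. Per the file headers, the drought libraries were set against the day 0 input and the day 0 libraries against the drought input, so each input level was assigned to the day whose input the header names. In regions with identical coordinates in both lists, the input so assigned to day 0 differed by 0.0033 between lists after a common scaling. The input so assigned to day 5 and day 7 differed by 0.32 (both median absolute log2 differences). Because the enrichments carry 2 decimals, a recovered input is uncertain by a median of 2.78% in the day 5 list and 2.94% in the day 7 list, and by at most 12.5% and 5.56%.

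The day 0 input of chromosome 14 differed between the lists. Of 593 regions with identical coordinates in both lists, 29 differed by more than 0.1 on the log2 scale in day 0 input after a common scaling, and all 29 were among the 30 on chromosome 14. Elsewhere the largest such difference was 0.04. In the day 5 list, day 0 input and day 0 H3K9ac followed each other closely over the 588 other listed regions of chromosome 14 (Spearman's rho 0.93, against 0.43 to 0.57 on the other chromosomes), and in the day 7 list they did not (0.41 over 673 regions, against 0.24 to 0.48). These correlations are across regions that share libraries, and the cause of the difference was not tested. The difference touches the enrichment and day 0 input of 7 input-dominated regions in the day 5 list, so input changes at day 5 are given with and without chromosome 14. Over the 588 other regions, median drought enrichment was 1.17 in the day 5 list, against 1.73 to 1.915 on other chromosomes. Which regions of chromosome 14 met the rule at day 5, and their overlap with the day 7 list, therefore also depend on that input. The H3K9ac reads are not affected by the input used.

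The input-dominated regions stood apart through their input rather than through scarce H3K9ac reads. In the day 5 list their day 0 input had a median of 1304 normalised reads per kb, against 164 over all listed regions, a ratio of 7.95. Their day 0 H3K9ac had a median of 217 reads per kb, against 277 over all listed regions. All 162 lay above the listed median of day 0 input. The rule largely fixes that count, since no region listed at day 5 held fewer than 80.5 day 0 H3K9ac reads per kb. Of the 162, 48 also lay above the listed median of day 0 H3K9ac. The label of low H3K9ac therefore holds relative to input, and not for the H3K9ac reads of every region.

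The day 7 list gave the same order. The day 0 input of its input-dominated regions had a median of 1526 reads per kb, against 155 over all listed regions, a ratio of 9.83, and day 0 H3K9ac had a median of 212, against 246. Here 46 of 121 regions lay above the listed median of day 0 H3K9ac. Very deep input was nearly confined to these regions: of the listed regions with at least 1000 input reads per kb at day 0, 102 of 107 at day 5 and 85 of 87 at day 7 were input-dominated, a count that the rule on enrichment largely fixes.

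**Figure D1:**
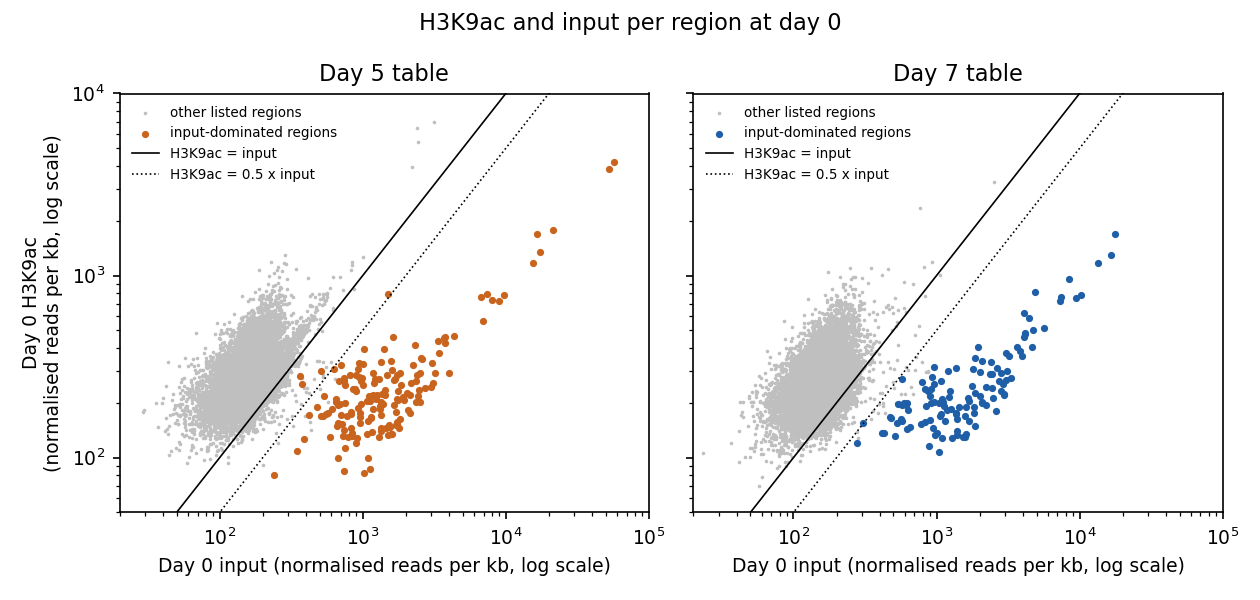
Day 0 H3K9ac (vertical axis) against day 0 input (horizontal axis), both in normalised reads per kb on log scales, for each listed region of the day 5 list (left) and day 7 list (right). Coloured points are the 162 and 121 input-dominated regions, grey points the other listed regions, and the lines mark H3K9ac at 1 and 0.5 times the input; the coloured points extend to the right, to 56862 input reads per kb at day 5, while most keep H3K9ac levels within the range of the grey points.

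Taken over their whole length, the input-dominated regions made up 2.29% of the listed sequence in the day 5 list and held 34.4% of the day 0 input reads and 3.09% of the day 0 H3K9ac reads summed over all listed regions. The regions of the day 7 list made up 1.33% of the listed sequence and held 22.1% of the day 0 input reads and 1.83% of the day 0 H3K9ac reads. Their median length was 1850 bp at day 5 and 1600 bp at day 7, against 1300 and 1200 bp over all listed regions, and 10 and 6 of them exceeded 5 kb. The longest spanned 19500 bp on chromosome 13 in the day 5 list.

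Input depth covered a wider range among the regions than H3K9ac did. Day 0 input ranged from 239 to 56862 reads per kb in the day 5 list, a 238-fold range, while day 0 H3K9ac ranged from 80.5 to 4224, a 52.5-fold range. These ranges rest on the extremes: the quartiles were 832 and 1931 reads per kb for input and 167 and 290 for H3K9ac. At day 7 the ranges were 63.5-fold for input and 15.8-fold for H3K9ac. Regions with deeper input also held more H3K9ac reads, with Spearman's rho of 0.52 over 162 regions and 0.71 over 121, a description across regions whose values share libraries and feed into 1 ratio. The geometric mean enrichment had a median of 0.210 at day 5 and 0.198 at day 7.

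The threshold of 0.5 cut through a thin tail. In the day 5 list the regions nearest to it from below were chr18:1260501-1261600, with an enrichment of 0.475, and chr19:14867401-14868400, with 0.4996. The nearest above it were chr3:15836901-15838400, with 0.506, and chr1:11563001-11565100, with 0.511. For day 7, chr17:3922201-3923300 (0.485) and chr14:16431501-16432900 (0.491) lay just below, and chr12:1626701-1628200 (0.505) and chr2:5255701-5256700 (0.510) just above. The locus on chromosome 1 that fell just outside at day 5 fell inside at day 7, where chr1:11563001-11565000 had an enrichment of 0.290.

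The regions were spread over all 19 chromosomes in both lists and made up the largest share of the listed regions, among the chromosomes, on chromosome 13. That chromosome held 26 of the 162 regions at day 5 and 16 of the 121 at day 7, which is 7.58% and 4.22% of its own listed regions. Over all listed regions the share of input-dominated regions was 1.53% and 1.00%. Among the chromosomes, number 19 followed with 3.52% and 2.35%, and chromosome 8 had the lowest share at day 5 (0.526%) and chromosome 9 at day 7 (0.166%). Unplaced scaffolds held 4 and 6 of the regions, 2 of the 3 regions listed on scaffold 21 at day 5 and 4 of the 5 listed there at day 7. No source used here names the genome build in full and genes were not assigned, so coordinates are printed as deposited.

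Some of the regions occurred in runs. The next listed region along the chromosome was also input-dominated for 33 of 159 regions in the day 5 list (20.8%) and for 29 of 118 in the day 7 list (24.6%). Within 10 kb of another input-dominated region lay 32 regions at day 5, in 11 clusters, and 28 at day 7, in 10 clusters, while 130 and 93 stood alone at that distance. Neighbouring windows of a single stretch of deep input can be listed as separate regions, so members of a cluster are not independent of each other.

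The run with the most regions lay on chromosome 13. Between 14659701 and 14905800, a span of 246100 bp, all 16 regions listed at day 5 were input-dominated, with day 0 input from 239 to 56862 reads per kb. At day 7 all 10 regions listed between 14661401 and 14905800 were input-dominated, with day 0 input from 978 to 17620 reads per kb. H3K9ac was higher under drought than at day 0 in every one of these regions in both lists, by 0.28 to 1.05 at day 5 and 0.32 to 0.70 at day 7 on the log2 scale in the authors' deposited tables, although on reads before the normalisation constants of the file header chr13:14751401-14758400 was at -0.010 at day 7.

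A second run lay on chromosome 2. Between 18302001 and 18390200 all 7 regions listed at day 5 and all 7 listed at day 7 were input-dominated. Within it, the largest cluster of the day 5 list, chr2:18348701-18390200, held 6 regions with day 0 input from 2068 to 3979 reads per kb. Shorter runs lay on chromosome 11 (4 of 4 listed regions between 7193101 and 7233200 at day 5, 5 of 5 between 7193301 and 7232200 at day 7) and chromosome 19 (4 of 4 between 3188001 and 3204400 at day 7). On scaffold 21, 4 of 5 regions listed at day 7 between 338601 and 438900 were input-dominated.

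**Figure D2:**
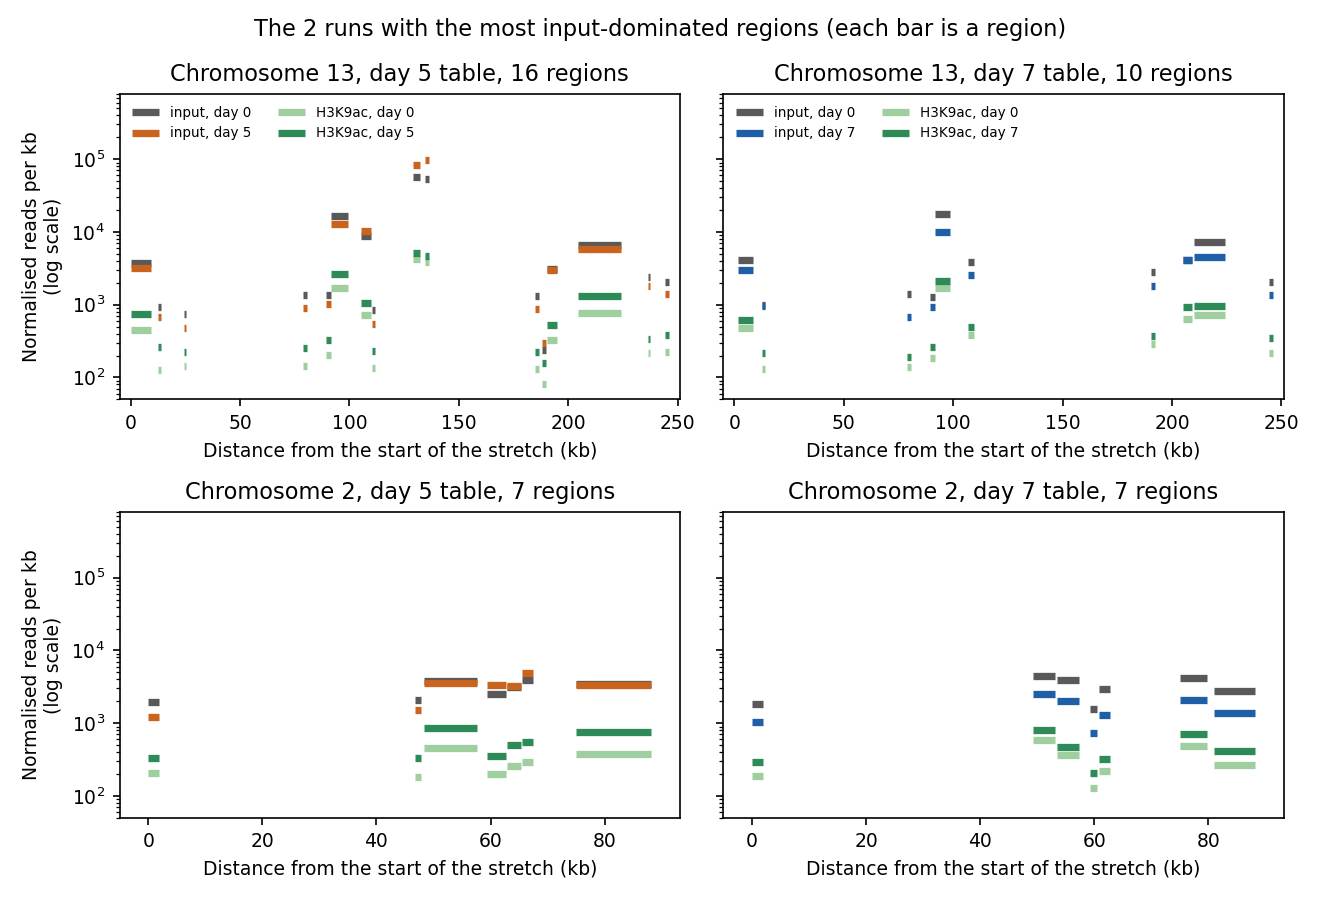
Normalised reads per kb (log scale) of input and H3K9ac at day 0 and under drought in the input-dominated regions of the runs on chromosome 13 (top) and chromosome 2 (bottom), against distance in kb from the start of the run, for the day 5 list (left) and day 7 list (right), each on its own scale. Each bar is a region; input lies above H3K9ac in every bar pair, and the 2 regions that reach 52673 and 56862 day 0 input reads per kb on chromosome 13 appear in the day 5 list and not in the day 7 list.

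The deepest input was found at 2 neighbouring regions of chromosome 13 in the day 5 list. At chr13:14788901-14791900 the H3K9ac libraries held 14279 and 11063 normalised reads at day 0 and 15309 and 15396 at day 5. Its input was 56862 reads per kb at day 0 and 84474 at day 5, within rounding limits of 53869 to 60207 and 76794 to 93860. The day 5 libraries were both above the day 0 libraries, by 1.21-fold for the means, while the day 0 libraries differed from each other by more than either day 5 library did from the higher of them.

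At chr13:14794101-14796000, the neighbouring listed region, the H3K9ac libraries held 8476 and 6150 reads at day 0 and 9129 and 8885 at day 5, and input was 52673 reads per kb at day 0 and 96225 at day 5. This region had the lowest geometric mean enrichment of the day 5 list, 0.0600. The groups did not overlap, but the gap between them was smaller than the difference between the day 0 libraries. Neither region has an input-dominated counterpart in the day 7 list.

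Chromosome 11 held the next deepest region, chr11:7193101-7199400, with 21546 input reads per kb at day 0 and 29819 at day 5. Its H3K9ac libraries held 12386 and 10157 reads at day 0 and 14589 and 15274 at day 5. At chr8:18778901-18780200 the day 0 libraries held 1830 and 1661 reads and the day 5 libraries 2330 and 2642, over an input of 17385 and 22377 reads per kb. Day 5 lay above day 0 in both regions, and on chromosome 8 the gap between the groups exceeded the difference between replicates of either group, which on chromosome 11 it did not. A further region of that chromosome, chr11:7215701-7218200, held 3325 and 2539 reads at day 0 and 3808 and 3895 at day 5, over an input of 15406 and 23456 reads per kb.

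The region chr13:14751401-14759100 had the fifth deepest day 0 input of the day 5 list and, as chr13:14751401-14758400, the deepest at day 7. In the day 5 list its H3K9ac libraries held 13118 and 12781 reads at day 0 and 19095 and 21939 at day 5, over an input of 16653 and 12937 reads per kb. The day 7 list gave 12037 and 11705 at day 0 and 15242 and 14361 at day 7, over an input of 17620 and 9976 reads per kb. Under the deposited normalisation H3K9ac was higher and input lower under drought on both days, but on reads before the constants in the file header the log2 change of H3K9ac at day 7 was -0.010. Relative to the median listed region the input changed by -0.12 at day 5 and -0.56 at day 7 on the log2 scale.

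The other regions among the 5 with the deepest mean input in the day 7 list had less input at day 7. They had more H3K9ac only under the deposited normalisation. On reads before the constants the log2 change of H3K9ac was -0.029 at chr11:7193301-7195300, -0.11 at chr11:7195401-7197200, -0.12 at chr19:3195101-3196100 and -0.11 at chr4:13200001-13201300. At chr11:7193301-7195300 the libraries held 1893 and 1938 reads at day 0 and 2385 and 2323 at day 7, while input went from 8407 to 5986 reads per kb. At chr11:7195401-7197200 the libraries held 2416 and 2226 reads at day 0 and 2721 and 2668 at day 7, while input went from 16633 to 7163 reads per kb. At chr19:3195101-3196100 they held 1197 and 1138 reads at day 0 and 1403 and 1304 at day 7, with input at 13531 and 7299. At chr4:13200001-13201300 they held 1026 and 1019 at day 0 and 1340 and 1059 at day 7, with input at 10249 and 4916. With the constants applied, the lowest day 7 library stood above the highest day 0 library, by a margin that on chromosome 4 was far smaller than the difference between the day 7 libraries.

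The lowest enrichment of the day 7 list, 0.114, was at scaffold 21, 434901 to 435900, which held 193 and 167 H3K9ac reads at day 0, 259 and 262 at day 7 and an input of 2606 and 1384 reads per kb. It was followed by the regions on chromosome 4, chromosome 19 and chromosome 11 just described and by chr13:9856401-9858300, where 1447 and 1400 reads at day 0 stood against 1638 and 1569 at day 7. The groups did not overlap in these 5 regions under the deposited normalisation. On reads before the constants the log2 change was 0.21 at scaffold 21 and -0.16 at chr13:9856401-9858300, and it was negative at the other 3 as given above.

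At day 5, H3K9ac reads were higher than at day 0 in 158 of the 162 input-dominated regions. In the authors' deposited table, adjusted p was below 0.05 for 156 of them that were gained and 3 that were lost, while over all listed regions 43.3% were gained and 48.2% lost. Both day 5 libraries lay above both day 0 libraries in 158 of the 162, and in 45.8% of all listed regions. With limma, fitted over all 10605 listed regions with Benjamini-Hochberg adjustment, 151 of the 162 were gained and 2 lost at an adjusted p below 0.05, against 39.5% of all listed regions gained. The list holds only regions that had already passed the authors' p cutoff in the same libraries, so most limma calls in it are fixed in advance. Because the rule also uses these libraries, nothing further is read from these counts.

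The median H3K9ac of the regions was 217 and 218 reads per kb in the day 0 libraries and 290 and 365 in the day 5 libraries. The median fold change was 1.57, or 0.65 on the log2 scale, against -0.09 for the median of all listed regions. The day 5 libraries differed from each other in these regions: replicate 2 was above replicate 1 in 150 of 162, with a median log2 ratio of 0.31, while over all listed regions it was above in 5400 of 10605, with a median log2 ratio of 0.0032. The same ratio of the day 0 replicates had a median of -0.03 in these regions. With day 5 replicate 2 left out the median log2 change was 0.48, and with replicate 1 left out it was 0.77. The part of this replicate in the size of the change was not tested beyond these values.

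**Figure D3:**
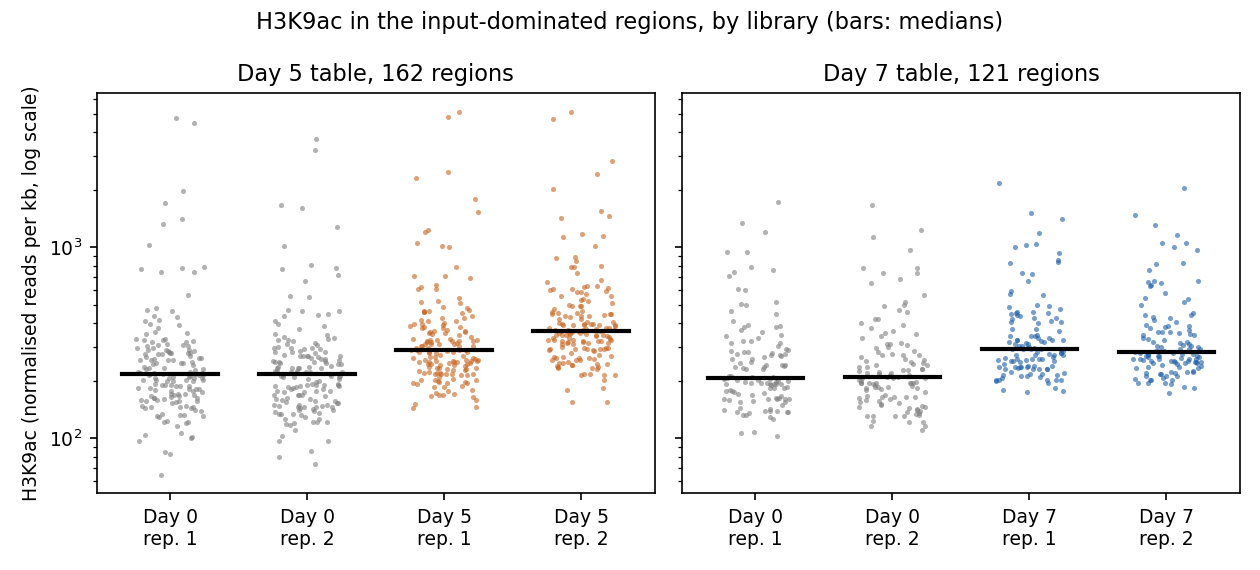
H3K9ac in normalised reads per kb (log scale) in each library for the 162 input-dominated regions of the day 5 list (left) and the 121 of the day 7 list (right); each point is a region and the black bars are medians. The day 5 medians, 290 and 365, lie apart from each other and above both day 0 medians, while the day 7 medians, 295 and 283, lie close together.

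Among the input-dominated regions, the largest gains at day 5 were in regions with moderate input. At chr11:8280701-8282500 the libraries held 153 and 144 reads at day 0 and 261 and 436 at day 5, and at chr3:3825801-3827600 they held 174 and 185 at day 0 and 385 and 432 at day 5. The log2 changes were 1.23 and 1.19 in the authors' deposited table. At chr16:5129801-5131600, with 150 and 155 reads at day 0 and 264 and 426 at day 5, and at chr13:13966801-13968700, with 301 and 269 against 475 and 756, the change was 1.17 and 1.11 in the authors' deposited table. At chr14:16978101-16980900 the libraries held 622 and 633 reads at day 0 and 1080 and 1662 at day 5. The groups did not overlap in any of these regions, but replicate 2 of day 5 was the highest library in all of them.

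The median gain was not the same at each input depth. The 60 regions with a day 0 input below 1000 reads per kb had a median log2 change of 0.53, the 90 from 1000 to 5000 had 0.72 and the 12 above 5000 had 0.54. At day 7 the medians were 0.52 for 36 regions, 0.47 for 76 and 0.30 for 9. These differences were not tested.

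At day 7, H3K9ac reads were higher than at day 0 in 120 of the 121 input-dominated regions under the deposited normalisation. In the authors' deposited table, adjusted p was below 0.05 for 112 that were gained and 1 that was lost, while over all listed regions 44.1% were gained and 45.0% lost. Both day 7 libraries lay above both day 0 libraries in 120 of 121, and in 47.4% of all listed regions. With limma over all 12101 listed regions, 116 were gained at a Benjamini-Hochberg adjusted p below 0.05, against 41.4% of all listed regions gained. As at day 5, the list was already selected for change in the same libraries, and nothing further is read from these counts.

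Median H3K9ac was 207 and 210 reads per kb in the day 0 libraries and 295 and 283 in the day 7 libraries, and the median fold change was 1.38, or 0.46 on the log2 scale. The direction at day 7 depended in part on the normalisation constants in the file header: on reads before those constants the median of all listed regions moved by -0.32 and 95 of the 121 regions, 78.5%, were higher at day 7, against 29.1% of all listed regions. Relative to the median of all listed regions, the regions were 0.52 higher with the constants and 0.51 higher without them. At day 5 the same step moved the median of all listed regions by -0.06 and left 158 of 162 regions higher.

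Among the input-dominated regions, the largest gains at day 7 were at chr5:14825601-14826700, with 117 and 149 reads at day 0 and 222 and 322 at day 7, and at chr16:5130301-5131500, with 124 and 133 at day 0 and 234 and 244 at day 7. At chr1:11563001-11565000 the libraries held 266 and 279 reads at day 0 and 460 and 507 at day 7. These were followed by chr4:1296501-1297500, with 150 and 163 against 240 and 294, and chr12:2411401-2412400, with 158 and 159 against 232 and 307. Every day 7 library lay above every day 0 library in these 5 regions, and 4 of them had day 0 inputs below 1000 reads per kb.

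Few of the regions had less H3K9ac under drought. At day 5 these were chr10:9427701-9428700, with 258 and 248 reads at day 0 and 186 and 155 at day 5, and chr19:14867401-14868400, with 329 and 233 at day 0 and 199 and 180 at day 5, each with a log2 change of -0.57 in the authors' deposited table. At chr15:13373701-13375100 the libraries held 434 and 399 reads at day 0 and 374 and 382 at day 5, and the adjusted p was 1 in the authors' deposited table. Day 5 lay below day 0 in all 3 of these regions, and the differences on chromosome 15 were small.

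The remaining region with a lower mean, chr5:10789501-10790700, held 1232 and 664 reads at day 0 and 723 and 720 at day 5, so the day 5 libraries lay between the day 0 libraries. Without day 0 replicate 1 its log2 change was 0.12 in place of -0.39. At day 7 the only region with a lower mean was chr10:14989701-14990700, with 322 and 308 reads at day 0 and 312 and 286 at day 7, where the groups overlapped. In all 4 of the regions with less H3K9ac at day 5, input was higher at day 5, by 0.69 to 1.05 on the log2 scale.

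Input changes are given relative to the median listed region, since input read totals are not in the lists and that median itself was -0.24 at day 5 and -0.26 at day 7 on the log2 scale. At day 5 input was relatively higher in 103 of 162 regions, with a median change of 0.17, and without chromosome 14 in 96 of 155, with a median of 0.14. At day 7 input was relatively lower in 104 of 121 regions, with a median of -0.52, and the median was -0.53 without chromosome 14. The rule uses the input of both days, and with no input replicates in the lists these changes have no error.

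The regions where input was relatively higher at day 7 were few. The largest change, 1.70, was at chr5:14825601-14826700, where input was 278 reads per kb at day 0 and 754 at day 7. It was followed by chr1:11563001-11565000, at 431 and 908, with a change of 1.33. Under the deposited normalisation H3K9ac was higher at day 7 in all 17 regions with relatively higher input. The same held in nearly all input-dominated regions of that list, so the count is not particular to these.

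Set against the input of the same day, H3K9ac was relatively higher in 130 of 162 regions at day 5, with a median log2 change of 0.49, and in 115 of 121 at day 7, with a median of 0.91. Over all listed regions the share was 46.7% at day 5 and 49.2% at day 7, and the rule uses both quantities. Without chromosome 14 the counts were 126 of 155 and 107 of 113. H3K9ac reads alone changed by a median of 0.46 and input by -0.52 at day 7. Taken as deposited, with the inputs of the other day as background, the ratio of drought to day 0 enrichment had a median of 0.59 at day 5 and -0.31 at day 7 on the log2 scale, so its sign at day 7 depends on which input is used. At day 5 the 2 deepest regions of chromosome 13 were lower relative to input, by -0.53 at chr13:14788901-14791900 and -0.81 at chr13:14794101-14796000.

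**Figure D4:**
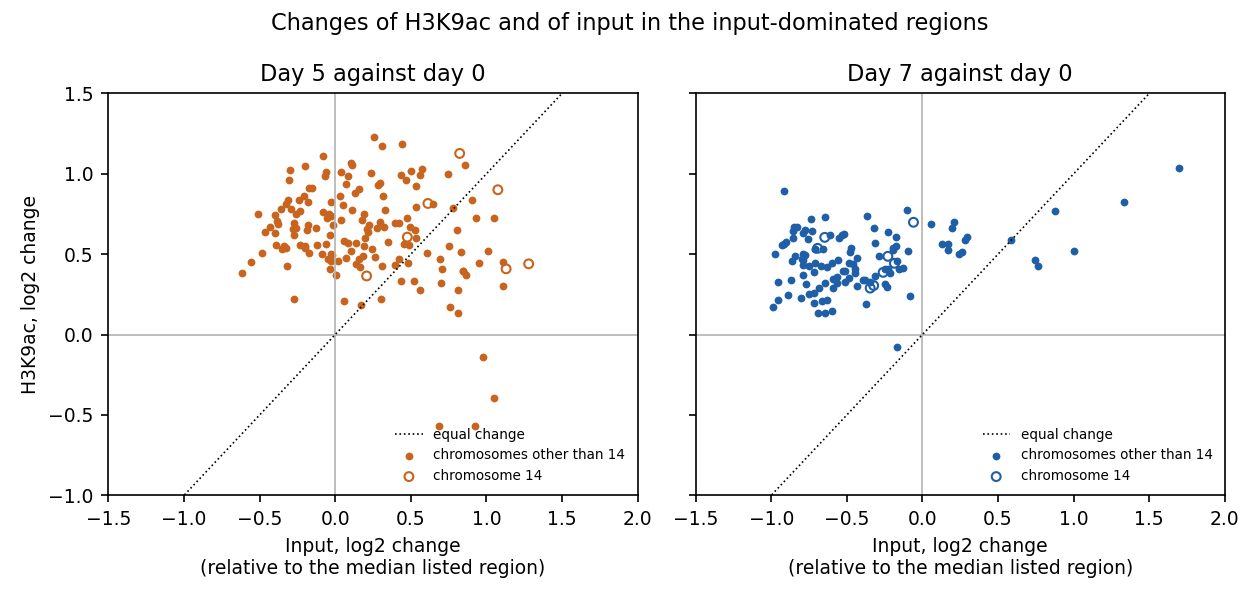
Log2 change of H3K9ac (vertical axis) against log2 change of input relative to the median listed region (horizontal axis), drought over day 0, for the input-dominated regions of the day 5 list (left) and day 7 list (right); open circles are on chromosome 14, and the dotted line marks equal changes. At day 5 the points spread to both sides of 0 on the input axis, and at day 7 most, 104 of 121, lie to its left while all but 1 lie above 0 on the H3K9ac axis under the deposited normalisation.

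The regions of the lists overlapped in part. Of the 162 at day 5, 85 (52.5%) overlapped an input-dominated region of the day 7 list by at least 1 base, 14 overlapped a listed region that was not input-dominated and 63 overlapped none. Of the 121 at day 7, 93 (76.9%) overlapped an input-dominated region of the day 5 list, 7 another listed region and 21 none. Any listed region of the other list was overlapped by 61.1% of the input-dominated regions at day 5 and 82.6% at day 7, against 62.9% and 55.9% of all listed regions, so at day 5 the share was close to that of all listed regions. Both comparisons use the same day 0 libraries, so overlap and shared direction are not independent of that common control.

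Merged, the lists gave 190 separate loci, of which 85 were in both, 77 in the day 5 list only and 28 in the day 7 list only. The 85 shared regions of the day 5 list had a median day 0 input of 1585 reads per kb, against 1162 for the 63 with no listed counterpart. In the day 7 list the 93 shared regions had a median of 1862, against 792 for the 21 with none. Of 93 overlapping pairs, 92 were higher in H3K9ac on both days under the deposited normalisation, and the exception was the pair at chr10:14989701-14990700 of the day 7 list. Some regions of the day 5 list enter several pairs, since the 93 pairs hold 85 of them. Nearly all input-dominated regions of each list were higher than the same day 0 libraries, so the count of pairs largely follows from that. The share over all overlapping listed regions was not taken, and nothing further is read from the count.

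For 76 pairs whose overlap covered at least 0.5 of each region, the lists were put on a common scale through the day 0 libraries, which they share: the day 0 H3K9ac values of the day 5 list were 1.09 times those of the day 7 list in the identical regions. The lists were normalised separately, and levels set across them carry that step. Day 0 and day 5 levels are per kb of the region in the day 5 list, and day 7 levels per kb of the region in the day 7 list. The ends of a pair differ, so day 7 levels set against the others mix that difference with any change. Median H3K9ac per kb was 217 and 223 in the day 0 libraries, 302 and 394 in the day 5 libraries and 323 and 312 in the day 7 libraries. The median log2 ratio of the day 7 to the day 5 level was -0.15, against 0.01 over all 5871 such pairs. Both day 7 libraries were below both day 5 libraries in 21 of the 76 pairs, 27.6%, and in 27.7% of all such pairs. Both were above in 6 of the 76 pairs and in 1759 of the 5871. Against day 0 over the same ends, the authors' deposited log2 change had a median of 0.71 in the 85 shared regions of the day 5 list. In the 93 shared regions of the day 7 list the median was 0.44.

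For the pairs with the longest shared sequence, levels are given in the same way, on the common scale and each over the ends of its own list. The region chr13:14864401-14883900 held 742 and 781 H3K9ac reads per kb at day 0 and 1207 and 1460 at day 5. Its pair in the day 7 list, chr13:14869601-14883800, held 1026 and 1056 at day 7. On chromosome 2, chr2:18376901-18390200 held 393 and 354 at day 0 and 608 and 893 at day 5, and the shorter chr2:18382901-18390200 held 467 and 430 at day 7. Over the shorter region the day 7 list gave 272 and 253 at day 0 and 428 and 395 at day 7, on its own scale. The region chr13:14751401-14759100 held 1704 and 1660 at day 0 and 2480 and 2849 at day 5, and its pair chr13:14751401-14758400 held 2375 and 2238 at day 7. In these 3 pairs every day 7 level lay between those of day 0 and day 5, but over unlike lengths, so no order of the days is read from it. Against day 0 over the same ends, the authors' deposited log2 changes were 0.81 at day 5 and 0.41 at day 7 in the first pair. They were 1.01 and 0.65 in the pair on chromosome 2, and 0.66 and 0.32 in the last pair.

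The region chr13:14659701-14668900 held 439 and 465 at day 0 and 689 and 793 at day 5. Its shorter pair, chr13:14661401-14668000, held 643 and 717 at day 7, so day 5 and day 7 levels overlapped, over unlike lengths. Against day 0 over the same ends, the authors' deposited log2 change was 0.71 at day 5 and 0.38 at day 7. On chromosome 16, chr16:8214501-8220300 held 774 and 807 at day 0 and 1227 and 1430 at day 5. Its pair chr16:8214601-8220100 held 1097 and 1151 at day 7, with no overlap between days. The input of this pair was 7382 reads per kb at day 0, 6082 at day 5 and 4693 at day 7 on the common scale. Relative to the median listed region it changed by -0.04 at day 5 and -0.46 at day 7 on the log2 scale.

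Input moved differently on the 2 days in the shared regions. Among 73 such pairs off chromosome 14, input was relatively higher at day 5 and lower at day 7 in 37, lower on both days in 28, lower at day 5 and higher at day 7 in 5 and higher on both days in 3. The median change was 0.05 at day 5 and -0.64 at day 7. Over all 5549 such pairs off chromosome 14, 35.4% were higher at day 5 and lower at day 7, and the medians were 0.05 and -0.01. The regions of a pair differ in their ends, and the day 0 input per kb of a pair differed between lists by 0.23 (median absolute log2 difference), whereas in the 7 identical input-dominated regions off chromosome 14 it differed by at most 0.04.

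A few listed regions had deep input and were not input-dominated. In the day 5 list they included 3 on chromosome 5 between 10716501 and 10800000, close to the input-dominated region at chr5:10789501-10790700, with day 0 inputs from 2228 to 2434 reads per kb and day 0 H3K9ac from 3962 to 6447. The region at chr8:19137901-19139800 held 3145 input and 6952 H3K9ac reads per kb at day 0. In these 4 regions H3K9ac exceeded the input of the same day at day 0, in contrast to regions of like input depth on chromosome 2, where it was 182 to 460 reads per kb. The rule largely fixes this contrast, since at like input depth it separates regions by their H3K9ac.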

How the data were processed

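The members and lists were chosen with earlier results of these data known. Per the file headers, the authors ran diffReps 1.55.4, which compared 1000 bp windows every 100 bp by a negative binomial model, and the deposited tables hold only regions past a window p of 0.0001. The deposited read values are another unit than raw counts: normalised reads per library, 2 in a cell. The deposited average columns hold the mean signal per group, and the enrichment columns the ratio of that signal to a background, per the file headers. The deposited log2 column gives the fold change, and the p-value columns give p and its Benjamini-Hochberg adjustment. Bowtie is named in the submitters' processing notes. No source used here gives its settings or names the build in full. PCR reads are not independent molecules.

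From these, input was taken as average signal over enrichment, per kb. Regions within 10 kb formed a cluster. Changes over all listed regions were fitted with limma 3.58.1 (R 4.3.3) on log2 normalised reads without a pseudocount and without a replicate block, and tested on simulated data. Named regions were, per list, the 5 lowest enrichments, the 5 deepest mean inputs, the 5 largest deposited log2 changes, every region with a lower mean, the largest clusters and the 5 pairs with the longest overlap. Tables were read with Python 3.11.15 and pandas 2.3.3. Alternatives covered the threshold, scaling, input assignment, libraries left out, overlap and cluster distance, and, added after seeing the data, chromosome 14 left out. Genes and sequences were not analysed here.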

Additional observations from a re-analysis of the deposited data

How the results depend on the processing

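The count of input-dominated regions stayed within 1.5 times its value at thresholds of 0.4 and 0.6, with both enrichments below 0.5 and without chromosome 14 (142 to 178 at day 5, 105 to 135 at day 7). The share with more H3K9ac was 97.5% at day 5 and 99.2% at day 7, and on reads before the normalisation constants the day 7 share was 78.5% and the day 7 median log2 change 0.13. Leaving out single libraries gave medians of 0.48 to 0.77 at day 5 and 0.44 to 0.47 at day 7. With inputs assigned by name in place of the header, the input change became -0.17 at day 5 and 0.52 at day 7, by construction. Without chromosome 14 it was 0.14 and -0.53, and H3K9ac over input was 0.51 and 0.92. With the deposited enrichments as they stand, the latter was 0.59 and -0.31. Regions with a neighbour numbered 18 within 2 kb and 49 within 100 kb at day 5, and 43 within 100 kb at day 7. Over all listed regions limma called 8884 at day 5 and 10091 at day 7, 8739 and 10096 with a replicate block, and 6002 to 8626 and 8325 to 9812 with a library left out, where the remaining library of that group is assumed to vary like the other group. The replicate numbers are shared in the labels without a stated pairing, and same-numbered libraries deviated together with a correlation of 0.11 and 0.09.

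Of 51 regions named by the rule, 8 changed direction under 1 setting each. Leaving out single libraries gave -0.77 to 0.12 at chr5:10789501. On reads before the constants the day 7 changes were -0.11 at chr4:13200001, -0.029 at chr11:7193301, -0.11 at chr11:7195401, -0.16 at chr13:9856401, -0.010 at chr13:14751401, -0.12 at chr19:3195101 and -0.0084 at chr19:3202501. Input levels are limited by the 2 decimals of the enrichments and have no replicate error.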
